A study of Mus musculus with 6 samples.

Results

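The vascular endothelial growth factor (VEGF) genes described here are 4 ligand genes (Vegfa, Vegfb, Vegfc and Pgf), 3 receptor genes (Flt1, Kdr and Flt4) and 2 co-receptor genes, the neuropilins Nrp1 and Nrp2. They were taken by gene symbol. Each of the 9 was held by 1 probe set, out of 21789 probe sets with a single gene symbol (19938 different symbols), and all 9 were bright enough to be tested. Whole yolk sacs from day 9.5 of mouse development were compared between 3 Tnrc6a (GW182) mutants, described in the study's design as GW182gt/gt, a homozygous gene-trap genotype, and 3 wild-type littermates. Total RNA of each embryo's yolk sac was run on its own Mouse Gene 1.0 ST array, and the labels add "mixed" to either genotype without saying what was mixed. Tnrc6a encodes GW182, an Argonaute partner that microRNAs need to shut down their target mRNAs. The comparison asks how the yolk sac's mRNAs differ when Tnrc6a is disrupted. The yolk sac was taken whole, so for each gene below fewer cells of a type and less RNA per cell cannot be told apart.

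VEGF-A is the main growth signal of blood vessels. It binds the receptor tyrosine kinases VEGFR1 (the product of Flt1) and VEGFR2 (the product of Kdr), and VEGFR2 carries most of the signal that makes endothelial cells divide, migrate and survive. VEGFR1 binds VEGF-A tightly but signals weakly, and its soluble form acts as a trap for the ligand, while neuropilins hold VEGF-A next to VEGFR2. In the mouse yolk sac, loss of Kdr leaves no blood islands or vessels, loss of Flt1 gives disorganised vessels with too many endothelial cells, and loss of a single Vegfa copy is already lethal to the embryo.

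The libraries were checked first. Tnrc6a read 7.81, 5.33 and 5.20 on the log2 scale in the libraries labelled mutant 1 to 3, against 8.40, 7.62 and 8.29 in wild types 1 to 3. The library labelled mutant 1 lay above wild type 2 and goes against its label, and every mutant direction below includes it unless stated. Xist was high in wild type 1, mutant 3 and the library labelled mutant 1, so sexes were mixed in both genotypes. The tissue label fits its defining markers: Afp and Ttr of the visceral endoderm read 12.56 to 12.71 on every array, and all 36 matched endothelial markers were above the filter on dim signals. The mean of the 26 visceral endoderm markers deviated from wild type by −0.21 in mutant 3, the lowest, against −0.032 to 0.13 elsewhere. Mutant 3 had the highest mean of the hypoxia and glycolysis list, 0.54 above the wild-type mean, and wild type 2 the highest means of the mesenchyme and mesothelium list (0.43) and of the trophoblast and decidua list (0.43). Mutant 2 had the lowest mean of the primitive erythroid list, a deviation of −0.78 from the wild-type mean, against −0.12 to 0.053 on the other arrays.

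The mean of 8 of the 9 genes was higher in the mutants, and Kdr, Nrp2 and Flt1 were higher in every mutant library than in every wild-type library. Kdr was 1.32-fold higher, Nrp2 1.19-fold and Flt1 1.15-fold, while Vegfb alone had a lower mean. None of the 9 genes passed the test over all 15252 tested probe sets (limma, adjusted p = 0.999 for each), and neither did any other probe set (0% called). At an unadjusted p under 0.05 there were 2 of 9 genes, Kdr and Nrp2, where 3.53% of all tested probe sets reached it and 2.32% did so with a higher mutant mean. The groups did not overlap for 3 of 9 genes, all higher in the mutants, against 8.55% of all tested probe sets without overlap and 5.24% higher in the mutants. Means were higher in the mutants for 52.9% of all tested probe sets. The median log2 difference of the 9 genes was 0.23, beside 0.0077 for all tested probe sets. With 3 arrays per genotype an exact permutation test cannot give a p below 0.1.

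**Figure D1:**
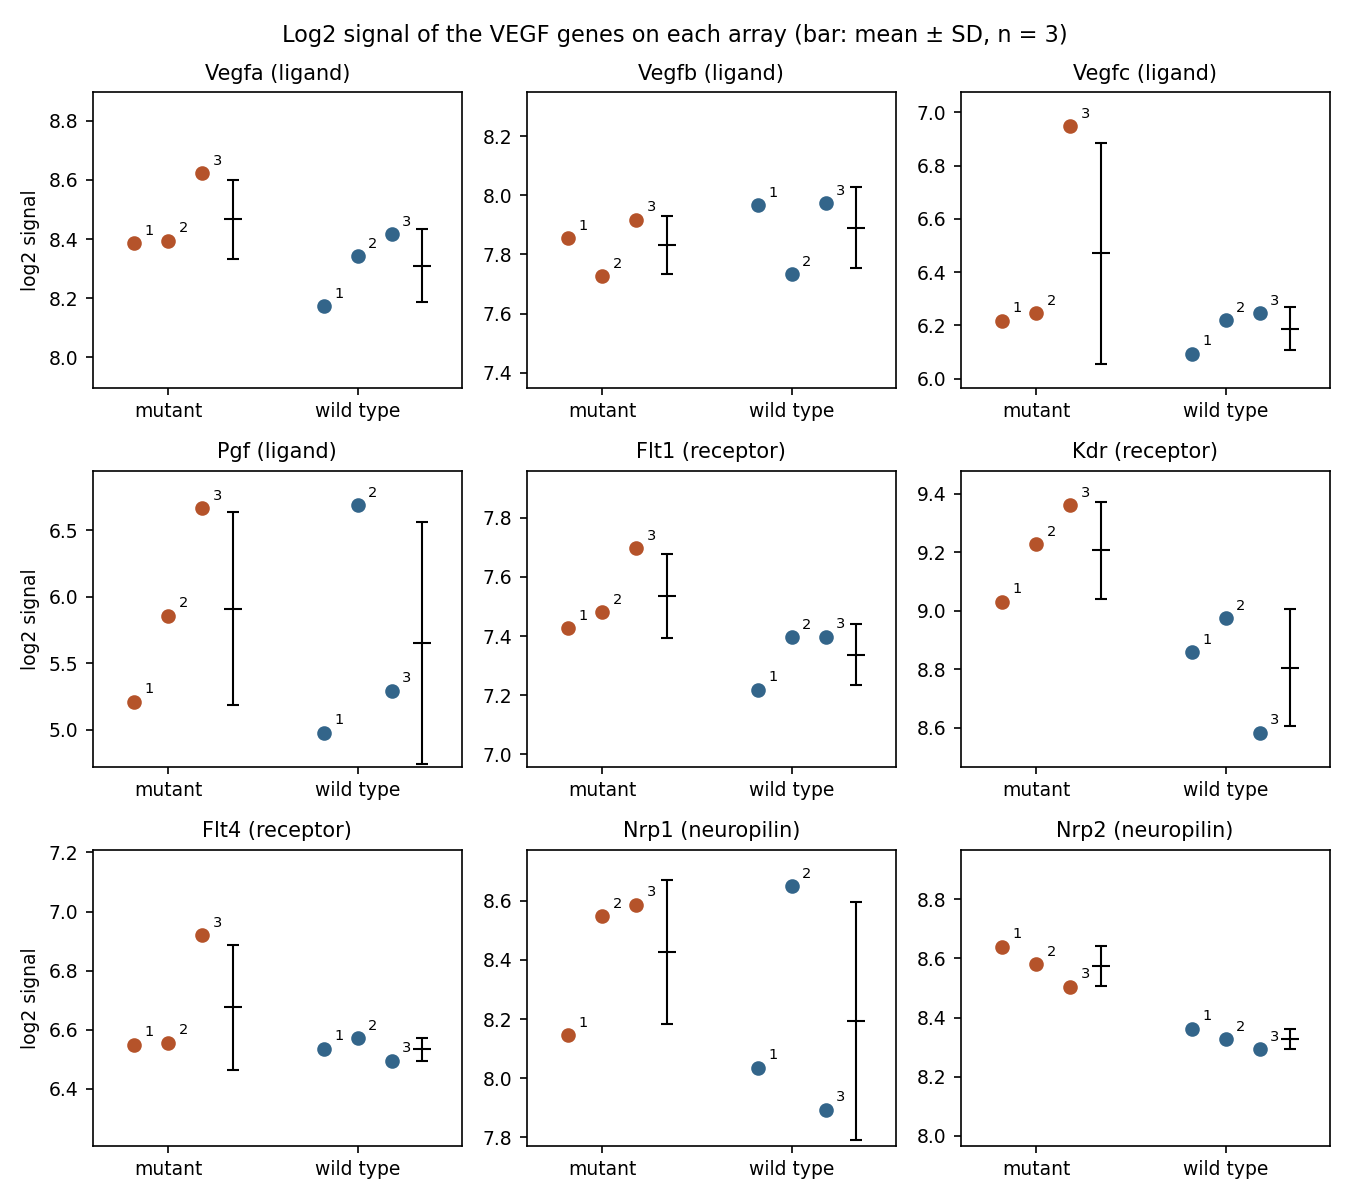
Log2 signal (vertical axes) of each VEGF gene on the 3 arrays labelled mutant (left) and the 3 wild-type arrays (right), numbered by replicate, with the mean ± SD of each group as a bar. Axes differ between genes and do not start at 0; Kdr, Flt1 and Nrp2 have no overlap between groups, and mutant 3 stands apart in Vegfc and Flt4.

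Vegfa, the ligand that starts vessel formation, read 8.39, 8.40 and 8.62 in the libraries labelled mutant 1 to 3, against 8.17, 8.34 and 8.42 in wild types 1 to 3. Mutant 3 was the highest array, and the other mutant libraries lay between wild types 2 and 3, so the groups overlapped. Mutants differed from wild type by 0.16 on the log2 scale (SE 0.11, 95% interval −0.087 to 0.40), with an unadjusted limma p of 0.175. An upper limit of 1.32-fold and a lower limit of 0.941-fold thus bound the mutant over wild-type ratio. Without mutant 3 the difference was 0.080, and without wild type 1, the lowest array, it was 0.088.

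Vegfb, a ligand of VEGFR1 linked in other mouse tissues to fatty acid handling and not needed for the embryo's vessels, read 7.85, 7.73 and 7.92 in the libraries labelled mutant 1 to 3, against 7.97, 7.73 and 7.97 in wild types 1 to 3. Mutant 2 and wild type 2 were nearly equal and lowest. Vegfb differed by −0.058 (SE 0.10, 95% interval −0.29 to 0.18).

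Vegfc is the ligand of VEGFR3 and drives the outgrowth of lymphatic vessels. It read 6.22, 6.25 and 6.95 in the libraries labelled mutant 1 to 3, against 6.09, 6.22 and 6.25 in the wild types. Mutant 3 alone stood above the rest, 0.76 over the wild-type mean. Vegfc differed by 0.28 (SE 0.19, unadjusted p = 0.178) with all arrays and 0.044 without mutant 3.

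Pgf, placental growth factor, is a ligand of VEGFR1 and is made in quantity by trophoblast. Its signal varied most among the 9 genes: 5.21, 5.86 and 6.66 in the libraries labelled mutant 1 to 3, against 4.98, 6.69 and 5.29 in wild types 1 to 3. Wild type 2 and mutant 3 were the highest arrays and wild type 1 the lowest, so the spread ran within each genotype. The group means were 5.91 ± 0.73 in the mutants and 5.65 ± 0.91 in wild type (SD, n = 3 each). The log2 difference of 0.26 (95% interval −0.89 to 1.41) was smaller than either spread, and it turned to −0.12 without mutant 3 and to −0.081 without wild type 1. It was 0.78 without wild type 2, and 1.13 once the library labelled mutant 1 was left out as well. Pgf read most among the wild types in wild type 2 and least among the mutants in that library. Both steps could therefore only raise the difference. The 15 matched trophoblast and decidua markers had summed linear signals of 348, 928 and 853 in the libraries labelled mutant 1 to 3, against 380, 1015 and 355 in wild types 1 to 3, and 11 of them had means below the limit for dim signals. None was listed at 0. Their mean log2 deviation from wild type was −0.32, 0.23 and −0.12 in the libraries labelled mutant 1 to 3, against −0.18, 0.43 and −0.25 in wild type. The 3 arrays with the highest Pgf were thus those with the highest sums of these markers. By mean deviation, mutant 2, mutant 3 and wild type 2 were also highest for the mesenchyme and mesothelium list (0.24, 0.19 and 0.43). The same held for the list of endothelial markers (0.23, 0.39 and 0.093). The part of these lists in the Pgf values was not tested.

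Vegfd, the remaining VEGF ligand gene, was too dim to be tested, at 4.26, 4.07 and 4.04 in the libraries labelled mutant 1 to 3, against 4.01, 3.85 and 4.01 in wild type.

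Of the receptors, Kdr differed most. It read 9.03, 9.23 and 9.36 in the libraries labelled mutant 1 to 3, against 8.86, 8.97 and 8.58 in wild types 1 to 3. All mutant libraries lay above all wild types, and the gap between the lowest mutant library and wild type 2 was 0.057. Kdr averaged 9.21 ± 0.17 in the mutants and 8.81 ± 0.20 in wild type (SD, n = 3 each). The log2 difference was 0.40 (SE 0.13, 95% interval 0.097 to 0.70), with an unadjusted limma p of 0.0163 that ranked 145th of the 15252 tested probe sets. The exact permutation p was 0.1, the smallest possible. The difference was 0.49 without the library labelled mutant 1 (unadjusted p = 0.00993), 0.32 without mutant 3 (0.0519) and 0.29 without wild type 3, the lowest array (0.0559). By the methods' t-test the unadjusted p of Kdr was 0.0558. Once wild type 2 was left out along with the library labelled mutant 1, the difference was 0.57 (unadjusted p = 0.00595). Among the mutants Kdr read least in that library, and among the wild types it read most in wild type 2. Dropping both arrays could therefore only widen the difference.

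Flt1 read 7.43, 7.48 and 7.70 in the libraries labelled mutant 1 to 3, against 7.22, 7.40 and 7.40 in wild types 1 to 3. The groups did not overlap, by a gap of 0.030 between the library labelled mutant 1 and wild type 3. The log2 difference was 0.20 (SE 0.10, 95% interval −0.041 to 0.44), and its unadjusted limma p was 0.0920. It was 0.12 without mutant 3 and 0.14 without wild type 1. The gene's only probe set gives a single value, so soluble and membrane-bound VEGFR1 were not distinguished.

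Flt4 encodes VEGFR3, the receptor for VEGF-C, which early blood vessels carry before it becomes a lymphatic marker. It read 6.55, 6.56 and 6.92 in the libraries labelled mutant 1 to 3, against 6.54, 6.57 and 6.50 in wild types 1 to 3. As with Vegfc, mutant 3 alone was high, and the other mutant libraries lay between wild types 1 and 2. The difference was 0.14 (SE 0.12, unadjusted p = 0.258) with all arrays and 0.019 without mutant 3.

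The neuropilins followed different patterns. Nrp2, a co-receptor of veins and lymphatic vessels that binds VEGF-C and class 3 semaphorins, read 8.64, 8.58 and 8.50 in the libraries labelled mutant 1 to 3, against 8.36, 8.33 and 8.29 in wild types 1 to 3. The groups were separated by 0.14, more than for Kdr or Flt1, and the highest array was the library labelled mutant 1. Nrp2 averaged 8.58 ± 0.068 in the mutants and 8.33 ± 0.035 in wild type (SD, n = 3 each), the smallest mutant spread of the 9 genes. The log2 difference was 0.25 (SE 0.079, 95% interval 0.064 to 0.43), with an unadjusted limma p of 0.0146 (0.0049 by the methods' t-test). The difference was 0.22 without the library labelled mutant 1 (unadjusted p = 0.0547) and ran from 0.22 to 0.28 when 1 array was left out. Once wild type 2 was left out along with that library, it was 0.21 (unadjusted p = 0.106).

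Nrp1, the neuropilin that arteries and migrating tip cells carry, read 8.15, 8.55 and 8.59 in the libraries labelled mutant 1 to 3, against 8.04, 8.65 and 7.89 in wild types 1 to 3. Wild type 2 was the highest array of all, and the library labelled mutant 1 lay beside wild type 1. Nrp1 differed by 0.23 (SE 0.21, unadjusted p = 0.299). Without wild type 2 it was 0.46 (unadjusted p = 0.0202), and 0.60 once the library labelled mutant 1 was left out as well (0.00194). Those arrays held the top wild-type and the bottom mutant value, so leaving them out had to widen the difference. The 19 matched mesenchyme and mesothelium markers, none of them listed at 0, deviated from the wild-type mean by −0.19, 0.24 and 0.19 in the libraries labelled mutant 1 to 3, against −0.26, 0.43 and −0.17 in wild type. Their summed linear signals ran from 10656 to 14339 in the mutants and from 9654 to 15898 in wild type. The 3 highest arrays were the same for Nrp1 and for this list. By mean deviation they were also the 3 highest for the trophoblast and decidua list and for the list of endothelial markers. The part of these lists in the Nrp1 values was not tested.

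Upstream sequences are shown for the 3 genes whose groups did not overlap, Kdr, Flt1 and Nrp2. Each is the 250 bases before the RefSeq transcription start (GRCm38.p6), 5′ to 3′ on the gene's strand: chr5:75978456-75978705 on the minus strand for Kdr, chr5:147726012-147726261 on the minus strand for Flt1 and chr1:62703067-62703316 on the plus strand for Nrp2. Capitals mark matches, on either strand, to the ETS core GGAA and to the hypoxia response cores ACGTG and GCGTG.
Kdr: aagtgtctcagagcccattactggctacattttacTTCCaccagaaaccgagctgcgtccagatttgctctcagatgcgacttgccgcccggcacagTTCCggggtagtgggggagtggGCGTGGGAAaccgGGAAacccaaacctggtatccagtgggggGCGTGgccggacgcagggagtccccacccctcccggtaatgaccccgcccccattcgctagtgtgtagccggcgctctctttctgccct
Flt1: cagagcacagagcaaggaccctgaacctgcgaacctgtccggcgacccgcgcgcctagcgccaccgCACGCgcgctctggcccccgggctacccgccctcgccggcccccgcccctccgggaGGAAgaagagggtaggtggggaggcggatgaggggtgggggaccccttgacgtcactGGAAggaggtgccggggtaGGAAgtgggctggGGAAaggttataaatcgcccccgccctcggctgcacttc
Nrp2: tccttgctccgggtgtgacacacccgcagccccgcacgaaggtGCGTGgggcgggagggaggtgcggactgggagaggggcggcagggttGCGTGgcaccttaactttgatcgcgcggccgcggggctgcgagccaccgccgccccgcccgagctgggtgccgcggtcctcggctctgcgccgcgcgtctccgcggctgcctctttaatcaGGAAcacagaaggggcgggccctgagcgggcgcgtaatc
The window held 4 matches to GGAA in Kdr, 4 in Flt1 and 1 in Nrp2. Of the 32851 mouse promoters of this length, 93.4% held at least 1, with a median of 3. GCGTG was found 2 times in Kdr, 1 time in Flt1 and 2 times in Nrp2, where 28.2% of all promoters held it, and ACGTG, which 16.6% held, in none of these 3 windows. GCGTG was also found 2 times in Vegfb, 1 time in Nrp1 and at 1 start each of Vegfa and Pgf, but not in Vegfc or Flt4. In Kdr a GCGTG match runs directly into a GGAA match. These are matches of letters, not sites shown to be bound.

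**Figure D2:**
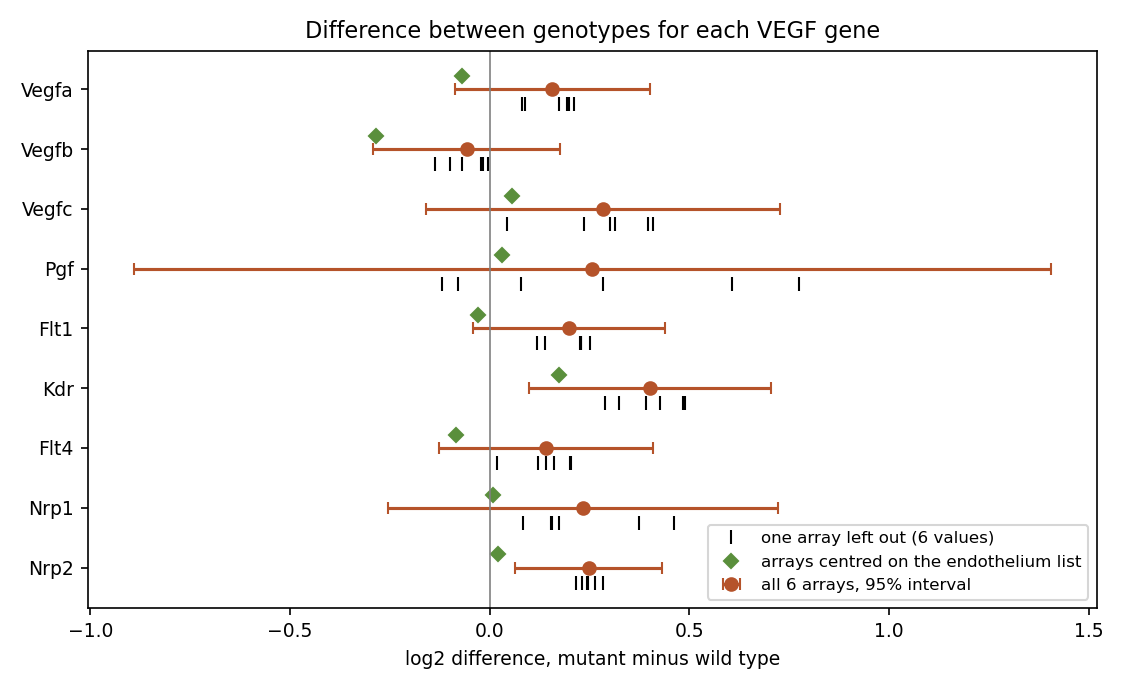
Log2 difference, mutant minus wild type (horizontal axis), for each VEGF gene: the orange point and line give the value over all 6 arrays with its 95% limma interval, black ticks the 6 values with 1 array left out, and the green diamond the value with arrays centred on the endothelium list. The intervals of Kdr and Nrp2 lie above 0, and the diamonds of Vegfa, Flt1 and Flt4 fall below it.

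The receptors are endothelial genes, and the means of endothelial markers were higher beside theirs. Of 36 matched endothelial genes outside the VEGF set, 34 had a higher mean in the mutants (52.9% of all tested probe sets did). Of these 36 genes, 10 were higher without overlap (5.24% of all tested probe sets), and none passed the adjusted test. Their median log2 difference was 0.23, the same as that of the VEGF genes. Their summed linear signals ran from 7435 to 9003 in the mutants and from 6863 to 7380 in wild type. The list's mean deviation from wild type was 0.057, 0.23 and 0.39 in the libraries labelled mutant 1 to 3, against −0.085, 0.093 and −0.0082 in the wild types. When each array was centred on this list, the difference of all tested probe sets shifted to a median of −0.22. On that scale Kdr kept a difference of 0.17 (SE 0.14, unadjusted p = 0.243), with 0.17, 0.19 and 0.16 in the libraries labelled mutant 1 to 3, against 0.14, 0.076 and −0.21 in wild types 1 to 3, still without overlap (26.2% of tested probe sets do not overlap there, and 5.34% have a higher mutant mean). Nrp2 came to 0.021, Nrp1 to 0.0070, Flt1 to −0.028 and Flt4 to −0.086. Their unadjusted p ran from 0.539 for Flt4 to 0.968 for Nrp1. The primitive erythroid markers ran the other way: all 13 matched genes had lower means in the mutants, 5 of them without overlap (3.31% of all tested probe sets), none passed the adjusted test, and the median log2 difference was −0.31. Their summed linear signals were 26598, 20134 and 27088 in the libraries labelled mutant 1 to 3, against 29147, 29334 and 28430 in wild types 1 to 3, and none was listed at 0. The part of this list in the values of the VEGF genes was not tested. Whether the share of endothelial cells set the receptors' values was not tested beyond this scaling.

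**Figure D3:**
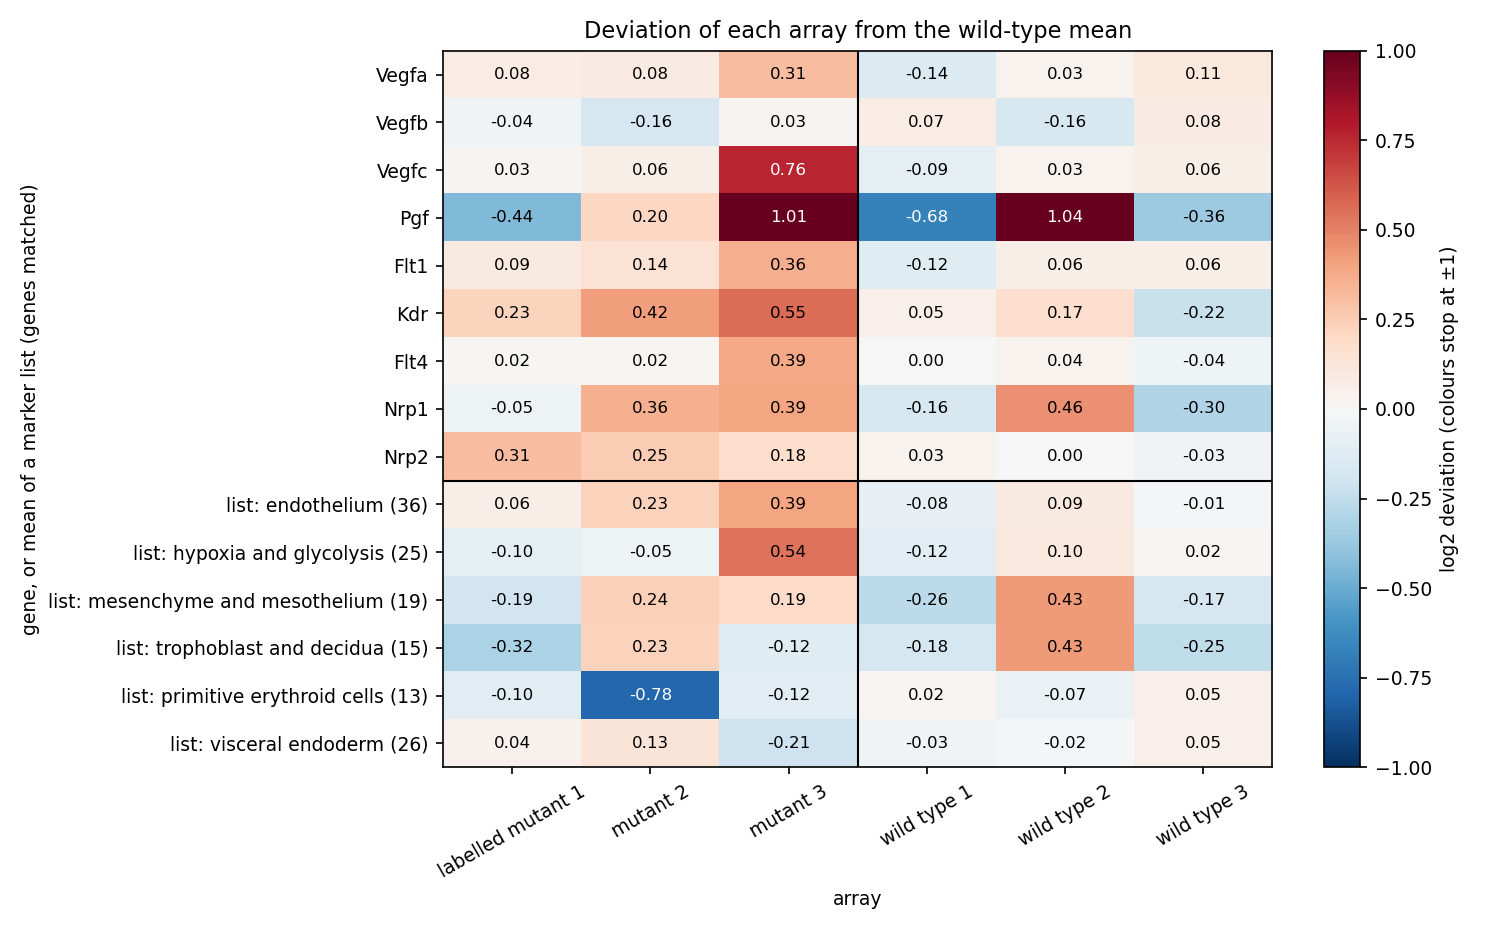
Log2 deviation from the wild-type mean (colour and printed number) of each VEGF gene and of the mean of 6 marker lists, with arrays in columns (mutants left, wild types right) and the number of matched genes in brackets. Mutant 3 is highest for Vegfc (0.76), Flt4 (0.39) and the hypoxia and glycolysis list (0.54), and Pgf is high in mutant 3 and wild type 2.

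The genes differed in which arrays set them apart. Mutant 3 was the highest array for 5 of the 9 genes (Vegfa, Vegfc, Flt1, Kdr and Flt4), where it was highest for 25.4% of all tested probe sets. Wild type 2 was highest for Pgf and Nrp1 (12.3% of all tested). When limma weighted arrays by how closely they followed the fit, mutant 3 had the lowest weight, 0.42, against 0.86 to 1.54 on the other arrays. With these weights the difference of Vegfc was 0.16 and that of Flt4 0.071. Among the 9 genes the closest pair by deviation from the 6-array mean was Vegfa and Flt1, with a root mean square difference of 0.034 on the log2 scale, and the farthest was Vegfb and Pgf, at 0.74. Over all 13904 tested genes, the genes nearest to the 3 most variable members were found in the same way, over 6 arrays. For Pgf they were Has2, a hyaluronan synthase (0.14), Ndn, an imprinted MAGE family gene (0.16), and Prss35, a serine protease relative (0.17). For Nrp1 they were Bmpr2, a BMP receptor (0.062), Crip2, a LIM domain protein (0.078), and Ak5, an adenylate kinase (0.081). For Vegfc they were Pcgf5, a Polycomb subunit (0.045), Angpt2, the angiopoietin that loosens vessels (0.050), and Fam162a, a gene that hypoxia induces in human cells (0.052). Genes picked by nearness to Vegfc share its single high value in mutant 3 by that choice. Fam162a read 8.26, 8.31 and 9.14 in the libraries labelled mutant 1 to 3, against 8.26, 8.32 and 8.37 in wild type.

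Oxygen sensing lies upstream of Vegfa: prolyl hydroxylases mark HIF alpha subunits for destruction by VHL, and stable HIF turns on Vegfa and Flt1. Of 10 genes of this list, 0 passed in either direction and the median log2 difference was 0.046. Hif1a itself read 9.53, 9.48 and 9.22 in the libraries labelled mutant 1 to 3, against 9.44, 9.47 and 9.51 in wild type. Egln3, a prolyl hydroxylase gene that HIF induces, read 4.93, 5.01 and 7.15 in the libraries labelled mutant 1 to 3, against 4.67, 5.20 and 4.95 in wild type, so mutant 3 alone was high. Its log2 difference was 0.75 (SE 0.54, unadjusted p = 0.204). Hif1an, the asparaginyl hydroxylase that limits HIF activity, differed by 0.24 (SE 0.13). The array with the highest Vegfa, Vegfc, Flt1, Kdr and Flt4, mutant 3, was thus the one with the highest Egln3 and the highest hypoxia and glycolysis list. It also had the lowest Hif1a and the highest mean of the endothelium list (0.39), and was highest for 25.4% of all tested probe sets. The part of either list in these values was not tested.

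The other lists of the pathway had medians between 0.060 and 0.12 and no gene past the adjusted test. Over the 109 tested genes of the 6 pathway lists, each counted once, 77 had higher and 32 lower means in the mutants, and the median was 0.075. At an unadjusted p under 0.05, 7 were higher (2.32% of all tested probe sets) and 2 lower (1.21%), and 12 were higher (5.24%) and 4 lower (3.31%) without overlap. Among semaphorin and plexin partners of neuropilins (8 of 10 with higher means), Plxnd1, the endothelial receptor of semaphorin 3E, read 8.74, 8.72 and 8.98 in the libraries labelled mutant 1 to 3, against 8.59, 8.41 and 8.37 in wild type. Its groups did not overlap, with a difference of 0.35 (SE 0.11, unadjusted p = 0.0105), and Sema3f, a Nrp2 ligand, differed by 0.18 (SE 0.10). Among modulators of VEGF signalling (13 of 19 higher), Vash2, a tubulin carboxypeptidase that promotes angiogenesis, differed by 0.54 (SE 0.17, unadjusted p = 0.0123). Itgb3, the beta subunit of the integrin that works with VEGFR2, was lower in every mutant library, at 7.06, 6.74 and 7.28, against 7.55, 7.35 and 7.43 in wild type (difference −0.42, SE 0.14).

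Among signal transducers below the receptors (29 of 42 higher), Nos3, the endothelial nitric oxide synthase that VEGFR2 activates through Akt, read 6.60, 6.55 and 6.57 in the libraries labelled mutant 1 to 3, against 6.32, 6.16 and 6.30 in wild type. The difference was 0.32 (SE 0.081, unadjusted p = 0.00512), without overlap; Nos3 is also among the endothelial markers. Hspb1, the small heat shock protein that VEGF signalling phosphorylates on the way to actin, was lower without overlap, at 7.55, 7.55 and 7.42, against 7.71, 7.81 and 7.98 in wild type (difference −0.33, SE 0.097). Among genes that VEGF induces in endothelial cells (18 of 24 higher), Hlx, a homeobox factor, differed by 0.25 (SE 0.093), without overlap, and Dusp5, a phosphatase of ERK, by −0.25 (SE 0.11). The PDGF genes, relatives of the VEGF family, had 4 of 6 higher means, with Pdgfb at 0.18 (SE 0.13) and Pdgfrb at 0.19 (SE 0.18).

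**Figure D4:**
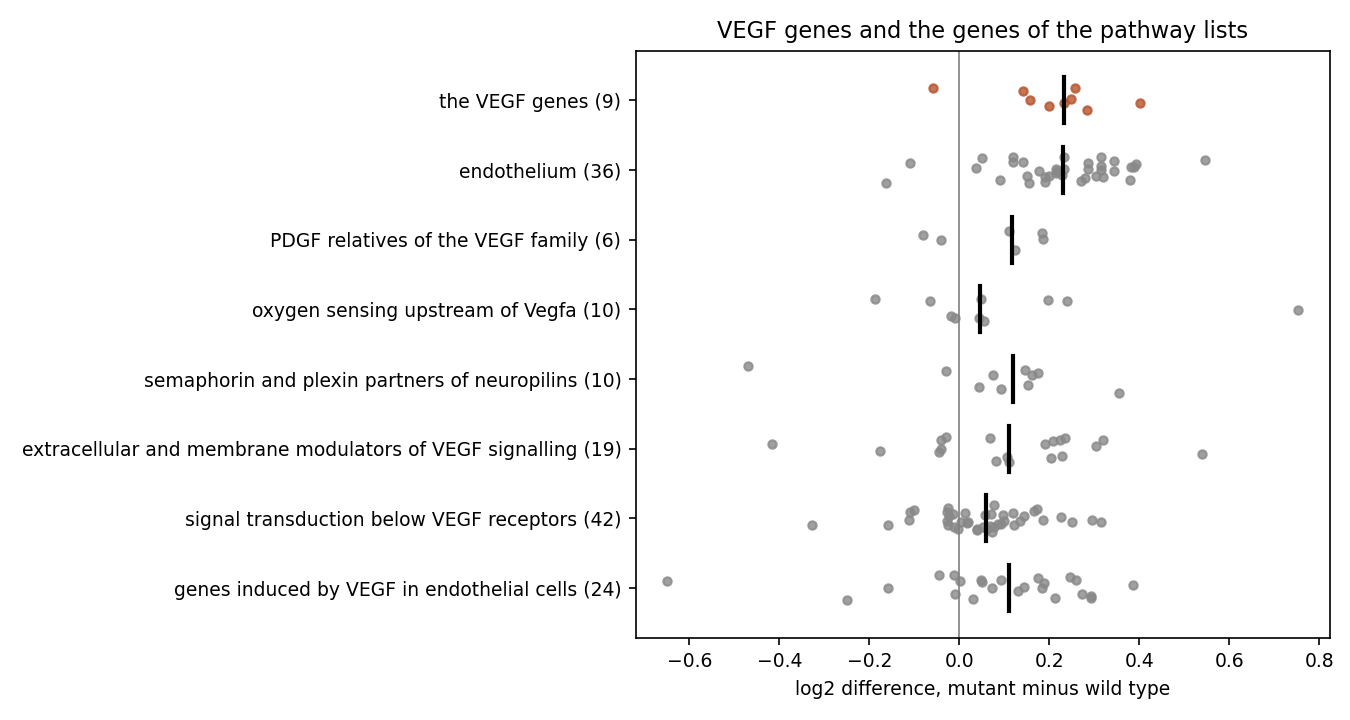
Log2 difference, mutant minus wild type (horizontal axis), of each tested gene in the VEGF set (orange), the endothelium list and the 6 pathway lists (grey), with the number of genes in brackets and the median as a black bar; vertical scatter within a row has no meaning. The medians of the VEGF genes and of the endothelium list both lie at 0.23, and those of the pathway lists between 0.046 and 0.12.

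miR-126 is a microRNA known to act on this pathway in mouse endothelium, and no other is described here. It is encoded within Egfl7 and represses Spred1 and Pik3r2, both brakes on the signal below VEGF receptors. It is shown because GW182 serves microRNAs of this kind, with its seed (bases 2 to 8) in capitals, from RefSeq at chr2:26591402-26591423 on the plus strand of GRCm38.p6.
mmu-miR-126a-3p: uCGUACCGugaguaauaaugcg
The array's Mir126a probe set read 2.27, 2.43 and 2.42 in the libraries labelled mutant 1 to 3, against 2.18, 2.32 and 2.27 in wild type, below the limit for dim signals, and was not tested. Spred1 read 6.70, 6.98 and 7.11 in the libraries labelled mutant 1 to 3, against 6.51, 6.77 and 6.63 in wild type. The library labelled mutant 1 lay below wild type 2, so the groups overlapped, and the difference was 0.29 (SE 0.13, unadjusted p = 0.0486). Pik3r2 read 6.79, 6.80 and 6.88, against 6.74, 6.89 and 6.83 in wild type, a difference of 0.0031 (SE 0.081). The host gene Egfl7 differed by 0.18 (SE 0.14). Spred1, Pik3r2 and Egfl7 are named here for this known link, as an exception to the rule for naming genes. Earlier results of these data were known when the gene lists were chosen.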

How the data were processed

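Values deposited by the authors are on a log2 scale and run from 0.66 to 13.7 over 35557 probe sets; the 6 array medians lie between 5.19 and 5.22. Per the submitters' processing notes MAS5 was used; how probes were summarised and arrays normalized is not given in the sources used. Values were used as deposited. Gene symbols came from the platform annotation held by GEO (1621 with several symbols and 12147 with none were left unnamed), and chromosomes and sequences came from RefSeq, GRCm38.p6.

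Probe sets with 1 symbol entered the test when their mean reached 4.34, the 30th percentile: 15252 probe sets of 13904 genes. Genotypes, taken from sample titles, were compared by limma's lmFit and eBayes (version 3.58.1, R 4.3.3, no block, 4 residual and 3.61 prior degrees of freedom), with Benjamini-Hochberg adjustment over all tested and a threshold of 0.05; the script was tested on simulated data. A gene's brightest probe set stood for it. The number of arrays limits the precision (median SE 0.11).

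Genes named beyond the 9 were, per pathway list, the 2 with the lowest p, and for the 3 most variable members the 3 genes nearest by root mean square difference; exceptions are marked. Of 305 list genes 272 were matched. The members and lists were chosen with earlier results of these data known. Alternatives covered scaling, filters, variance models, the methods' t-test (the two-sample test its design text names, run unpaired), the replicate number as a block, Xist as a covariate and left-out arrays.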

Additional observations from a re-analysis of the deposited data

How the results depend on the processing

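No VEGF gene and no pathway gene passed the adjusted threshold in any of the 19 alternatives. Among all tested probe sets 1 passed, Tnrc6a, when the library labelled mutant 1 and wild type 2 were both left out (limma, adjusted p = 0.00245); the lowest adjusted p was 0.107 to 1.00 elsewhere. VEGF genes at an unadjusted p under 0.05 numbered 2 with all arrays (3.53% of all tested). They numbered 0 with arrays centred on the endothelium list (15.4%) and 1 by the methods' t-test (3.85%), which kept Nrp2 and lost Kdr. With 1 array left out they numbered 1 to 3. The count was 1 without mutant 3 (8.21%), wild type 3 (2.46%) or the library labelled mutant 1 (4.40%). It was 3 without wild type 2 (4.92%). Genes without overlap, 3 with all arrays, numbered 5 after quantile normalization (8.77% of all tested), 1 with endothelium centring (26.2%), 7 with the library labelled mutant 1 and wild type 2 both left out (36.1%) and 3 to 6 with 1 array left out (6 without wild type 2, 21.2% of all tested; 4 without wild type 3, 15.0%; 3 without mutant 3, 27.2%; 3 without the library labelled mutant 1, 17.7%; 3 without mutant 2, 14.3%; 3 without wild type 1, 15.5%), so without mutant 3 the 3 of 9 lay near the share of all tested. Higher mutant means, 8 of 9, numbered 5 with endothelium centring, where 5.34% of all tested were higher, and 7 to 8 with 1 array left out. All tested probe sets at an unadjusted p under 0.05, 538 with all arrays (354 higher), numbered 2351 with endothelium centring (10 higher), 1014 with array weights (613 higher), 1124 with the library labelled mutant 1 and wild type 2 both left out (847 higher) and 371 to 1252 with 1 array left out (592 of the 1252, without mutant 3, were higher). Pathway genes at that p numbered 9 with all arrays (3.53% of all tested) and 14 with array weights (6.65%). With the library labelled mutant 1 and wild type 2 both left out they numbered 17 (7.37%). They ran from 5 without wild type 1 (2.43%) to 13 without the library labelled mutant 1 (4.40%) when 1 array was left out. Endothelium centring turned Vegfa to −0.070, Flt1 to −0.028 and Flt4 to −0.086, as the alternative subtracts the list's own shift. Pgf turned to −0.12 without mutant 3 and ran to 0.78 when 1 array was left out. With probe sets lacking a symbol added, 757 had an unadjusted p under 0.05, of which 394 were higher.

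Replicate numbers are shared between genotypes, and the labels do not say whether arrays with the same number belong together. Deviations of same-numbered arrays correlated at 0.46, 0.14 and −0.11 across probe sets for replicates 1 to 3. With the replicate block, limma gave 702 probe sets below the unadjusted threshold of 0.05 and 0 past the adjusted one. Under that pairing Kdr had an unadjusted limma p of 0.0305 and Nrp2 of 0.0226. The number of arrays limits what could be detected: the SE of a VEGF gene's log2 difference ran from 0.079 (Nrp2) to 0.49 (Pgf).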
